A study of Homo sapiens with 16 samples.

Results

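The 9 genes described here encode BET proteins, the HEXIM inhibitors and the kinase complex P-TEFb, together with a transcript used as a marker of BET inhibitor response. They were chosen by symbol, and all 9 were found among the 44591 gene rows of each deposited table. BRD2 and BRD3 are BET proteins. HEXIM1 and HEXIM2 are inhibitors of P-TEFb, whose kinase is CDK9 and whose cyclins are encoded by CCNT1 and CCNT2. LARP7 binds the small nuclear RNA 7SK, and SERPINI1 encodes neuroserpin, a secreted inhibitor of tissue plasminogen activator.

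BET proteins bind acetylated histones through bromodomains and bring P-TEFb to promoters, where CDK9 phosphorylates RNA polymerase II and its pausing factors and so releases the polymerase into elongation. Much of the P-TEFb in a cell is held inactive in a particle of 7SK RNA, HEXIM1 or HEXIM2, LARP7 and the 7SK capping enzyme MEPCE. BET inhibitors such as JQ1 occupy the bromodomains, and histone deacetylase inhibitors such as panobinostat raise the acetylation that those bromodomains read. HEXIM1 mRNA is widely followed as a marker of exposure to BET inhibitors.

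RNA was sequenced from cultures of NCI-H1688, an established human line from a small cell carcinoma of the lung, in 16 libraries that form 8 groups of 2 biological duplicates, all collected after 24 h. The first table held the control and, given alone, the plant alkaloids sanguinarine chloride (1 µM), cepharanthine (3 µM) and evodiamine (3 µM). The second held (+)-JQ-1 (JQ1) at 28 µM, panobinostat at 60 nM, and sanguinarine chloride at 1 µM combined with either of them at the same dose. The control carries the label untreated, whereas the design text names DMSO. No control stood in the second table, so every test was made within a table or between within-table differences, and for levels set across the tables the table and the drug cannot be told apart. All results come from 1 cell line, and in bulk RNA a smaller share of cells with a transcript cannot be told apart from less of it per cell.

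Depth was 39996881 to 64060919 counted reads per library, and log2(CPM + 1) correlated at 0.9947 to 0.999 between duplicates. The least alike duplicates were those of sanguinarine with panobinostat, whose counts gave a chi-square of 83.8 for each degree of freedom (4.92 to 27.2 in the other groups), so results with that group are also given with each of its libraries left out. HMOX1, a stress-response gene used here to check the labels, stood at 123 to 443 RPKM in the 6 libraries labelled with sanguinarine and at 0.901 to 6.20 RPKM in the other 10. Of 8 neuroendocrine markers, UCHL1 alone reached 1 RPKM in all 16 libraries. Of the others, SYP lay at 0.104 to 0.286 RPKM in the first table and 2.21 to 14.5 RPKM in the second, NCAM1 reached 0.0280 and 11.4 RPKM, and DLL3 0.504 and 1.87 RPKM. The highest value of CHGA was 0.416 RPKM and that of the factors NEUROD1 and INSM1 0.0427 RPKM, while all 4 epithelial markers were at 52.95 RPKM or more and YAP1 at 13.6 to 52.0 RPKM. Of the markers of other cells, CD68 reached 23.0 RPKM, COL1A1 18.9 RPKM and CDH5 4.63 RPKM, whereas PTPRC did not exceed 0.0293 RPKM.

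The promoters of HEXIM1, BRD2 and SERPINI1 are printed because these transcripts differed most between JQ1 and panobinostat. Each window comes from RefSeq on GRCh38.p14 and runs from 250 bases before to 50 bases after a listed start, on the plus strand, at chr17:45148225-45148524 for HEXIM1, chr6:32968344-32968643 for the first of 4 listed BRD2 starts and chr3:167735471-167735770 for SERPINI1. Capitals mark matches to 3 motifs, searched on both strands. The GC box was spelled GGGCGG. The TATA box was spelled TATAAA. The CCAAT box was spelled as in its name.
HEXIM1: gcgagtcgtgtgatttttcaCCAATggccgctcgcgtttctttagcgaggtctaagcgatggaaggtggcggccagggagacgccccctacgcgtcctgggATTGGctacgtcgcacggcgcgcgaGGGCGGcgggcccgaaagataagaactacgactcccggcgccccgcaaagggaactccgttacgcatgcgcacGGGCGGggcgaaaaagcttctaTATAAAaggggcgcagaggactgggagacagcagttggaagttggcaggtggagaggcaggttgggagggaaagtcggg
BRD2: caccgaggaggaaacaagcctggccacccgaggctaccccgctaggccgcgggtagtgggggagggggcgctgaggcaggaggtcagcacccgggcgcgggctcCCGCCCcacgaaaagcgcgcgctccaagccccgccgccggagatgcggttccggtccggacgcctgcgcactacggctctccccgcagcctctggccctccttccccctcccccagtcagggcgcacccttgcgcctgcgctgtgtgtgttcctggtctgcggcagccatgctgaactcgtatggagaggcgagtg
SERPINI1: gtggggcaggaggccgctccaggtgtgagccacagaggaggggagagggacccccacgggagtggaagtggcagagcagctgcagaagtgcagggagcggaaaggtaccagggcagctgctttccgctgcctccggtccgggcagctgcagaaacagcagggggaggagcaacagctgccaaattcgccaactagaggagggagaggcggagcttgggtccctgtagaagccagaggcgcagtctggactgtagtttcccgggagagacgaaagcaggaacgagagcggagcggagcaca
The HEXIM1 window held 2 GC boxes, 2 CCAAT boxes and 1 TATA box, the BRD2 window held 1 GC box, and the SERPINI1 window held no match to these motifs. Among the 35116 promoter windows of the same length in the table, 45% held a GC box, 34.6% a CCAAT box and 11.5% a TATA box. GC content was 62% for HEXIM1, 71.7% for BRD2 and 64% for SERPINI1, against a median of 58.7% over all windows. A match is a description of letters and not a shown binding site.

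JQ1 and panobinostat left cells with very different amounts of BRD2, HEXIM1 and SERPINI1 transcript, whereas CDK9 did not pass the test. HEXIM1, BRD2, SERPINI1, BRD3, CCNT1 and CCNT2 were higher with JQ1, and HEXIM2 and LARP7 were lower. Thus 8 of the 9 genes passed an adjusted p of 0.05 in edgeR's quasi-likelihood test with Benjamini-Hochberg adjustment, where 55.9% of the 22263 genes tested did. Of all genes tested, 26.8% were higher with JQ1 and 29.1% lower, beside 6 and 2 of the 9. With so many genes past the threshold, the size of the change separates the genes better than the call. The median log2 difference of the 9 genes was 0.50, against -0.03 over all genes tested.

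BRD2, whose bromodomains bind acetylated histone H4, stood at 141 and 138 RPKM with JQ1 and at 19.6 and 17.3 RPKM with panobinostat. RPKM are reads per kilobase of gene model and of library total, as deposited. The log2 difference was 3.09 (95% interval 2.88 to 3.29), an 8.49-fold higher level with JQ1, with an adjusted p of 1.08e-14 in edgeR, and 91.9% of tested genes differed by less. BRD3, its close relative, stood at 16.02 and 15.8 RPKM with JQ1 against 10.2 and 10.2 RPKM with panobinostat. Its log2 difference was 0.81 (95% interval 0.60 to 1.01, edgeR adjusted p = 6.68e-07), so both BET genes were higher with JQ1, BRD2 by far more. Of tested genes, 52.2% differed by less than BRD3 and 85.8% by less than SERPINI1. Only 31.3% to 39.3% differed by less than CCNT1, CCNT2, HEXIM2 or LARP7, so most tested genes changed more than these.

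HEXIM1 stood at 129 and 127 RPKM with JQ1 and at 12.7 and 12.8 RPKM with panobinostat, with no overlap between the groups. Its level was 11.2-fold higher with JQ1 (log2 difference 3.49, 95% interval 3.28 to 3.70, edgeR adjusted p = 3.09e-15), a change exceeded by fewer genes than that of BRD2, since 93.8% of tested genes differed by less. HEXIM2, the paralogue that also binds 7SK RNA, was scarce and moved the other way, at 2.45 and 1.95 RPKM with JQ1 against 3.64 and 3.65 RPKM with panobinostat. Its log2 difference was -0.56 (95% interval -0.97 to -0.14, edgeR adjusted p = 0.0233), a call lost without JQ1 replicate 2 (-0.35, adjusted p = 0.265) or either panobinostat library (adjusted p of 0.0921 and 0.0895). Reads of HEXIM2 cannot be told apart from those of genes on the opposite strand, since the counting is not stated to use strand. In the second table an overlapping opposite-strand row, ENSG00000224505.2, held 437% to 588% of the HEXIM2 count with JQ1 and 28.8% to 34.5% with panobinostat. The same row held 4.64% to 5.53% of the HEXIM1 count in these 4 libraries. LOC105371795, also opposite HEXIM2, held 94.5% to 97.2% of the HEXIM2 count with JQ1 and 66.5% to 66.9% with panobinostat.

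SERPINI1 stood at 32.1 and 33.4 RPKM with JQ1 and at 7.42 and 8.23 RPKM with panobinostat. It was 4.69-fold higher with JQ1 (log2 difference 2.23, 95% interval 1.79 to 2.67, edgeR adjusted p = 2.32e-08). No other row overlapped SERPINI1, CDK9, CCNT1 or CCNT2 by the positions in the files.

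The kinase subunit CDK9 stood at 31.2 and 31.0 RPKM with JQ1 and at 32.9 and 30.3 RPKM with panobinostat, and these groups overlapped. Its log2 difference of 0.15 did not pass the test (95% interval -0.08 to 0.37, edgeR adjusted p = 0.263), and the interval leaves room for a difference of up to 0.37. CCNT1, which encodes cyclin T1, stood at 9.95 and 9.78 RPKM with JQ1 against 8.26 and 7.43 RPKM with panobinostat (log2 difference 0.50, edgeR adjusted p = 0.00131). CCNT2, which encodes cyclin T2, stood at 3.24 and 3.18 RPKM against 2.57 and 2.78 RPKM (log2 difference 0.43, edgeR adjusted p = 0.0148). The CCNT2 call was lost with library totals as the scaling, with the second table fitted alone (adjusted p = 0.105) and without JQ1 replicate 1 (0.0899) or panobinostat replicate 1 (0.0887).

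LARP7, which holds 7SK RNA in the inactive particle, was lower with JQ1, at 5.56 and 7.01 RPKM against 9.02 and 11.6 RPKM with panobinostat. Its log2 difference was -0.55 (edgeR adjusted p = 0.0107), and the call was lost without JQ1 replicate 1 (-0.41, adjusted p = 0.123) or panobinostat replicate 2 (-0.35, 0.175). Reads of ZGRF1, on the opposite strand, came to 19.4% to 33.9% of the LARP7 count in these 4 libraries. BRD3 likewise overlaps LINC00094 on the opposite strand, which held 34.0% to 37.5% of its count with JQ1 and 63.8% to 70.3% with panobinostat.

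**Figure D1:**
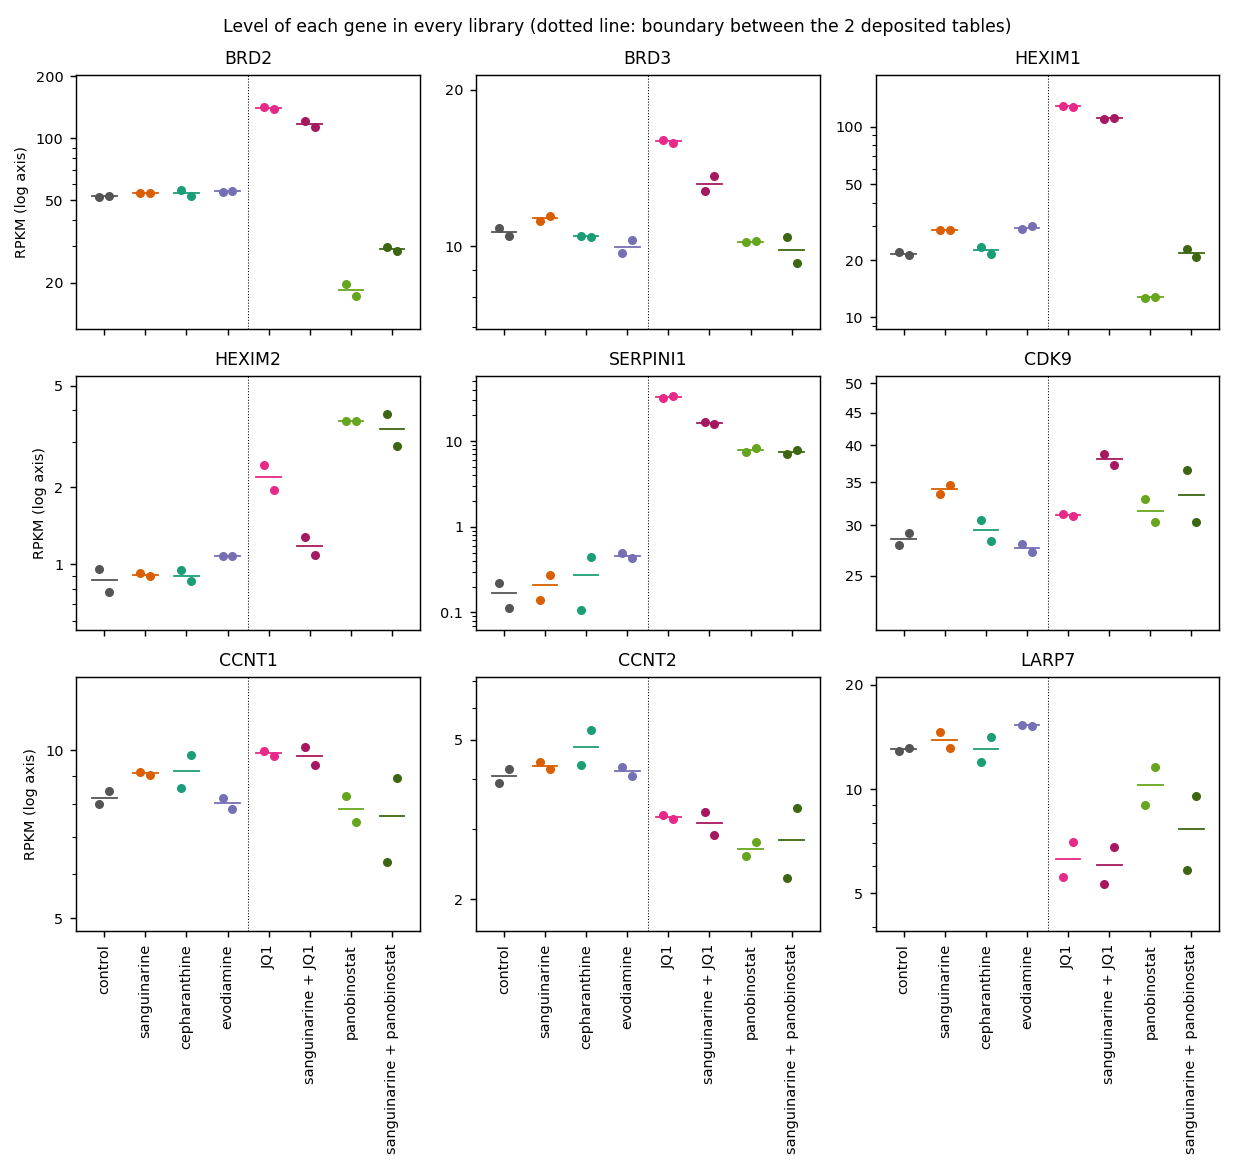
RPKM of each of the 9 genes (vertical log axis) in every library, with points for libraries and a line for the mean of each group of 2. The JQ1 libraries lie at 129 and 127 RPKM for HEXIM1 and 141 and 138 RPKM for BRD2, far above the panobinostat libraries at 12.7 and 12.8 RPKM and 19.6 and 17.3 RPKM.

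Adding sanguinarine moved HEXIM1 and BRD2 in opposite directions on the 2 backgrounds. Both were lower with sanguinarine and JQ1 than with JQ1, and both were higher with sanguinarine and panobinostat than with panobinostat. With JQ1, 5 of the 9 genes fell (BRD2, BRD3, HEXIM1, HEXIM2 and SERPINI1) and 0 rose, where 30% of tested genes passed the edgeR test, 16.2% higher and 13.8% lower. The HEXIM1, BRD2 and BRD3 calls on JQ1 were lost with the second table fitted alone. With panobinostat, HEXIM1 and BRD2 rose and LARP7 fell, so 3 of 9 passed, where 22.9% of tested genes did, 11.5% higher and 11.4% lower. That share moved with single libraries, from 5107 genes to 2088 without panobinostat replicate 2, to 7739 without replicate 2 of the combination, and to 3205 with the second table fitted alone.

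On top of JQ1, SERPINI1 changed most of the 9, from 32.1 and 33.4 RPKM to 16.7 and 15.8 RPKM. Its log2 difference was -1.09 (95% interval -1.51 to -0.67, edgeR adjusted p = 0.000349). HEXIM2 went from 2.45 and 1.95 RPKM to 1.27 and 1.09 RPKM (log2 difference -0.98, edgeR adjusted p = 0.00114), with the strand limit given above. The opposite-strand row ENSG00000224505.2 held 437% to 588% of the HEXIM2 count with JQ1 and 360% to 454% with the combination. LOC105371795 held 94.5% to 97.2% and 57.4% to 85.6%. The part of these rows in the HEXIM2 difference was not tested. SERPINI1 and HEXIM2 remained called when the second table was fitted alone and without each library in turn.

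The other 3 changes on JQ1 were smaller, and the duplicates of each gene did not overlap between the groups. HEXIM1 went from 129 and 127 RPKM to 110.4 and 111 RPKM (log2 difference -0.29, edgeR adjusted p = 0.0205). BRD2 went from 141 and 138 RPKM to 122 and 113 RPKM (log2 difference -0.33, edgeR adjusted p = 0.00984), and BRD3 from 16.02 and 15.8 RPKM to 12.8 and 13.6 RPKM (log2 difference -0.35, edgeR adjusted p = 0.00894). With the second table fitted alone these 3 did not pass, with edgeR adjusted p of 0.116 for HEXIM1, 0.0828 for BRD2 and 0.0699 for BRD3. With the duplicate number as a block as well, they were 0.101, 0.0576 and 0.061. HEXIM1 also lost its call with library totals as the scaling (-0.21, 0.0608), with no filter on low counts (-0.26, 0.0725), without JQ1 replicate 1 (0.178) or either combination library (0.0733 and 0.1004), BRD2 without JQ1 replicate 1 (0.1199) or combination replicate 2 (0.108), and BRD3 without JQ1 replicate 1 (0.107) or combination replicate 1 (0.0739). CDK9, at 38.8 and 37.2 RPKM against 31.2 and 31.0 RPKM, had a log2 difference of 0.21 (95% interval -0.01 to 0.43) that did not pass (edgeR adjusted p = 0.153). It passed with library totals as the scaling (0.29, adjusted p = 0.0331) and without both libraries of sanguinarine with panobinostat (0.21, 0.0242).

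On top of panobinostat, HEXIM1 went from 12.7 and 12.8 RPKM to 22.8 and 20.7 RPKM, beside 21.99 and 21.2 RPKM in the control libraries of the other table. Its log2 difference was 0.66 (95% interval 0.46 to 0.85, edgeR adjusted p = 6.73e-05), and 0.54 to 0.76 over fits without each library in turn. BRD2 went from 19.6 and 17.3 RPKM to 29.7 and 28.5 RPKM, beside 52.0 to 52.6 RPKM in those control libraries. Table and drug cannot be told apart in either comparison with control. The BRD2 log2 difference was 0.54 (95% interval 0.35 to 0.74, edgeR adjusted p = 0.000362), with a range of 0.42 to 0.62 over the same fits. Both remained called in each of these fits. LARP7 went from 9.02 and 11.6 RPKM to 5.82 and 9.54 RPKM, which overlap, and its log2 difference of -0.55 (edgeR adjusted p = 0.0251) lost its call without panobinostat replicate 2 (-0.39, 0.263) or combination replicate 1 (-0.27, 0.214). That call was also lost with library totals as the scaling (-0.42, adjusted p = 0.1075) and with the second table fitted alone (-0.59, 0.0697). BRD3 at 10.4 and 9.27 RPKM, CCNT1 at 6.31 and 8.92 RPKM, CCNT2 at 2.26 and 3.38 RPKM, CDK9 at 36.6 and 30.3 RPKM, HEXIM2 at 3.87 and 2.90 RPKM and SERPINI1 at 7.02 and 7.78 RPKM did not pass. The duplicates of this combination decide some of these, since BRD3 passed without its replicate 1 (-0.30, adjusted p = 0.0222) and CCNT1 without its replicate 2 (-0.39, 0.00334).

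The test of the difference between these responses was passed by HEXIM1 and BRD2, 2 of the 9 genes, where 11.2% of tested genes passed (2497 genes, and 1463 to 4984 without 1 library). The response to sanguinarine on JQ1 minus that on panobinostat was -0.95 on the log2 scale for HEXIM1 (95% interval -1.22 to -0.67, edgeR adjusted p = 6.84e-05). For BRD2 it was -0.87 (95% interval -1.15 to -0.60, edgeR adjusted p = 0.000163). For SERPINI1 it was -0.89 and missed the threshold (edgeR adjusted p = 0.0512), passing with median-ratio scaling (adjusted p = 0.0457), with no filter on low counts (0.00312) and when the second table was fitted alone without (0.021) or with the duplicate number as a block (0.0162). HEXIM2, at -0.77, did not pass (edgeR adjusted p = 0.0879). Without replicate 1 of sanguinarine with panobinostat, SERPINI1 (-0.92, 0.00572) and CDK9 (0.43, 0.0111) passed too, and without its replicate 2 SERPINI1 (-0.85, 0.00873), HEXIM2 (-0.99, 0.00841) and LARP7 (0.77, 0.00313) did.

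Set against the response to sanguinarine alone, HEXIM1 responded by 0.57 less on JQ1 in log2 (difference -0.57, 95% interval -0.84 to -0.30, edgeR adjusted p = 0.00429). HEXIM2 also differed (-0.92, edgeR adjusted p = 0.0395), a call lost in 7 of 8 fits without 1 library (adjusted p up to 0.196) and with no filter on low counts (0.0658), so 2 of 9 genes passed where 18.1% of tested genes did. SERPINI1 passed with no filter on low counts (-1.28, adjusted p = 0.0131) and, as did BRD3 (-0.30, 0.0256), without both libraries of sanguinarine with panobinostat (-1.33, 0.0418). On panobinostat, BRD2 responded by 0.62 more than with sanguinarine alone (95% interval 0.35 to 0.90, edgeR adjusted p = 0.00269), the 1 gene of the 9 that passed, where 16.6% of tested genes did. HEXIM1, at 0.38, missed the threshold there (edgeR adjusted p = 0.0548). It passed with median-ratio scaling (0.0471), with library totals (0.0463), in DESeq2 (0.0181) and without replicate 2 of the combination (0.48, 0.00109), as did LARP7 (-0.85, 0.000652) and CCNT1 (-0.40, 0.0212). CDK9 passed without replicate 1 of the combination (-0.34, 0.0417). These differences share the sanguinarine and control libraries. Each sets a response in the second table against that in the first, so background drug and table cannot be told apart in it.

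**Figure D2:**
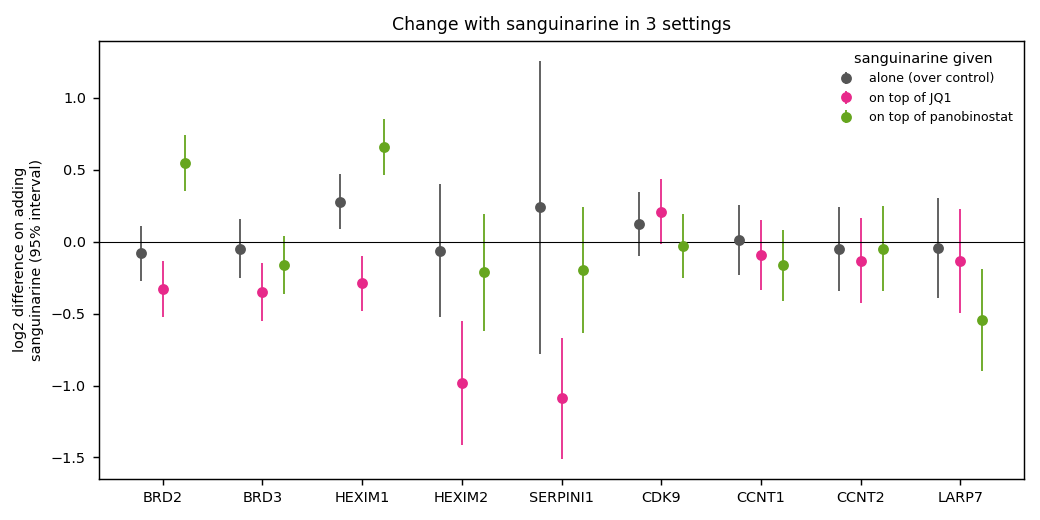
Log2 difference on adding sanguinarine (vertical axis, points with 95% intervals) to control cells, to JQ1 and to panobinostat for each of the 9 genes. HEXIM1 lies at 0.28, -0.29 and 0.66 and BRD2 at -0.08, -0.33 and 0.54 in that order.

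Given alone, the alkaloids changed few of the 9 genes. HEXIM1 was higher with evodiamine and, less firmly, with sanguinarine, and SERPINI1 was higher with evodiamine at a very low level. With sanguinarine 1 of 9 genes passed, where 22% of tested genes did, and with evodiamine 2 of 9 passed, where 11.4% did. With cepharanthine 0 of 9 passed in edgeR, 0 at an unadjusted p under 0.05 and 0 in DESeq2, where 3.56% of tested genes passed in edgeR. Without 1 library of the comparison, 2602 to 2744 genes passed with sanguinarine in place of 4895, 1065 to 1250 with evodiamine in place of 2546, and 337 to 434 with cepharanthine in place of 793.

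HEXIM1 stood at 21.99 and 21.2 RPKM in control cells, 28.8 and 28.8 RPKM with sanguinarine, 23.5 and 21.6 RPKM with cepharanthine and 28.9 and 30.1 RPKM with evodiamine. Ordered by mean, control and cepharanthine overlapped, and sanguinarine and evodiamine lay above both. The log2 difference from control was 0.39 with evodiamine (95% interval 0.20 to 0.59, edgeR adjusted p = 0.00786). It was 0.28 with sanguinarine (95% interval 0.09 to 0.47, edgeR adjusted p = 0.0352), which did not pass with median-ratio scaling (0.0612), without the filter on low counts (0.0718) or without any 1 of the 4 libraries (0.137 to 0.241). The evodiamine call was lost without control replicate 1 (adjusted p = 0.0638), control replicate 2 (0.108) or evodiamine replicate 2 (0.0991). Cepharanthine and evodiamine, compared at the same 3 µM, differed in HEXIM1 by a log2 difference of -0.36 (95% interval -0.55 to -0.17, edgeR adjusted p = 0.0114), the 1 of 9 genes that passed, where 14.1% of tested genes did. That call was lost without cepharanthine replicate 2 (-0.29, 0.163) or evodiamine replicate 2 (-0.32, 0.127), and SERPINI1 passed without cepharanthine replicate 2 (-2.05, 0.00337). With the first table fitted alone CCNT1 (0.21, 0.017), CCNT2 (0.22, 0.0427) and LARP7 (-0.21, 0.0445) passed too.

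SERPINI1 was near the detection limit in the first table, with 11 to 54 reads per library. It stood at 0.221 and 0.112 RPKM in control cells, 0.140 and 0.276 RPKM with sanguinarine, 0.107 and 0.438 RPKM with cepharanthine and 0.487 and 0.432 RPKM with evodiamine. The evodiamine difference of 1.45 (95% interval 0.58 to 2.32, edgeR adjusted p = 0.0284) lost its call without control replicate 2 (1.00, adjusted p = 0.299), evodiamine replicate 1 (1.37, 0.129) or evodiamine replicate 2 (1.52, 0.0817). In the second table SERPINI1 had 590 to 2744 reads per library.

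BRD2 lay within 52.0 to 56.2 RPKM over all 8 libraries of the first table, and its log2 difference from control was -0.08 with sanguinarine, 0.02 with cepharanthine and 0.02 with evodiamine. BRD3 lay within 9.70 to 11.5 RPKM and HEXIM2 within 0.777 to 1.08 RPKM there. CDK9 lay within 27.2 to 34.7 RPKM, highest with sanguinarine at 33.5 and 34.7 RPKM, a log2 difference of 0.12 from control that did not pass (95% interval -0.10 to 0.35, edgeR adjusted p = 0.462). CCNT1 ranged from 7.84 to 9.79 RPKM, CCNT2 from 3.90 to 5.28 RPKM and LARP7 from 12.01 to 15.4 RPKM. RPKM are scaled to the library total and the log2 differences to TMM factors, which is why a gene such as BRD2 can stand slightly higher in RPKM with sanguinarine and slightly lower in the test.

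**Figure D3:**
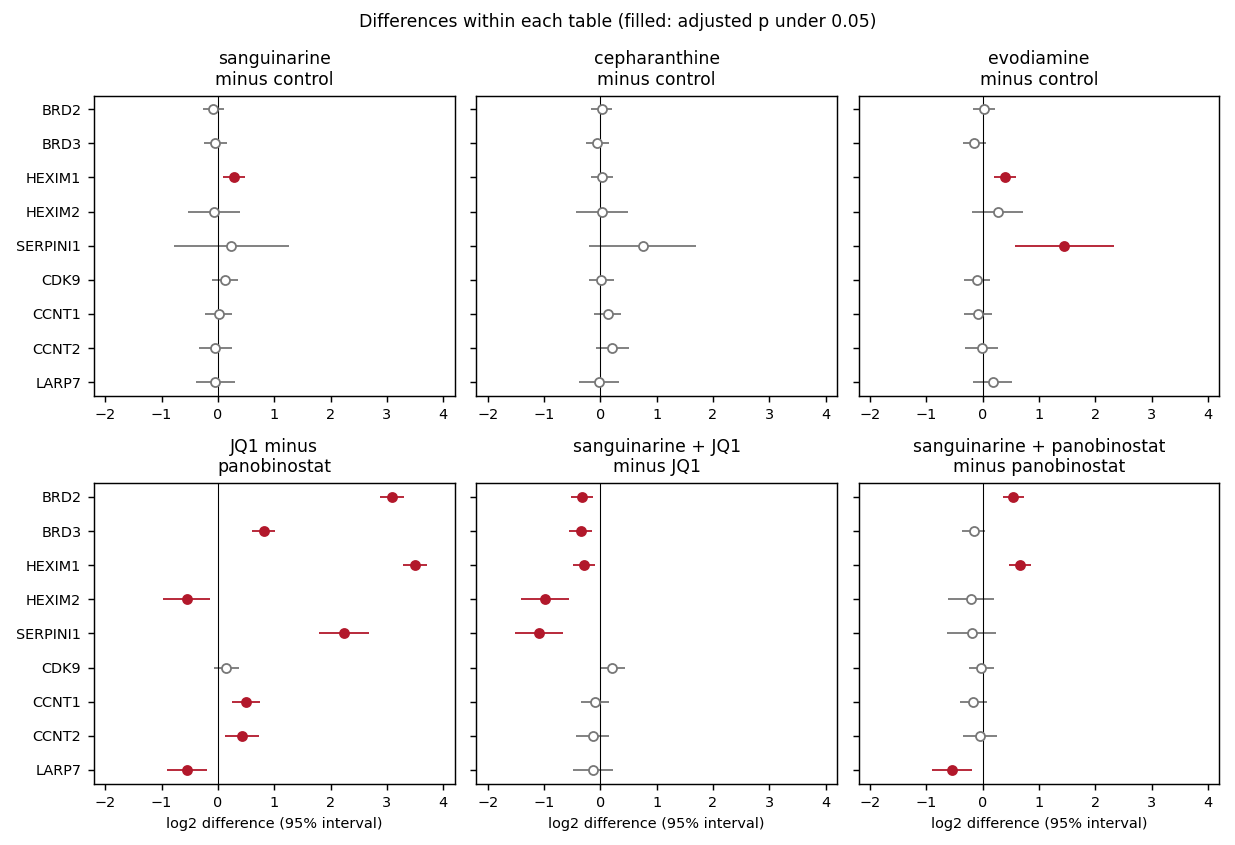
Log2 difference (horizontal axis, points with 95% intervals) of each gene in 6 within-table comparisons, with filled points for an adjusted p under 0.05 in edgeR. The filled points are 1, 0 and 2 for sanguinarine, cepharanthine and evodiamine against control, 8 for JQ1 against panobinostat, 5 for sanguinarine on JQ1 and 3 for sanguinarine on panobinostat.

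Set side by side across the tables, HEXIM1 in JQ1 libraries (129 and 127 RPKM) lay above every library of the first table (21.2 to 30.1 RPKM), and in panobinostat libraries (12.7 and 12.8 RPKM) below them. The same held for BRD2, at 141 and 138 RPKM with JQ1 and 19.6 and 17.3 RPKM with panobinostat against 52.0 to 56.2 RPKM. SERPINI1 was higher in all 8 libraries of the second table, at 7.02 to 33.4 RPKM, than in the first, at 0.107 to 0.487 RPKM. LARP7 was lower in the second table, at 5.31 to 11.6 RPKM against 12.01 to 15.4 RPKM, and CCNT2 likewise, at 2.26 to 3.38 RPKM against 3.90 to 5.28 RPKM. These differences were not tested, and table and drug cannot be told apart in them. The opposite-strand row that overlaps HEXIM1 and HEXIM2 held 0 to 10 reads per first-table library and 113 to 1281 per second-table library. A row opposite BRD2, ENSG00000263756.1, held 0 reads and 118 to 1986 reads, at most 5.02% of the BRD2 count.

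Ratios taken within a library do not depend on its depth, but they can still differ between the tables. The CCNT1 to CCNT2 ratio was 1.86 to 2.14 in first-table libraries and 2.64 to 3.26 in second-table libraries. Table and drug cannot be told apart where ratios of the second table are set beside control cells. The HEXIM1 to CDK9 ratio of RPKM, an inhibitor over the kinase it restrains, was 0.789 and 0.729 in control cells, 4.12 and 4.10 with JQ1 and 0.387 and 0.424 with panobinostat. Under JQ1 plus sanguinarine it was 2.84 and 2.98, and under panobinostat plus sanguinarine 0.624 and 0.682, so the second-table groups did not overlap. The BRD2 to BRD3 ratio was 8.79 and 8.75 with JQ1 and 1.93 and 1.69 with panobinostat, beside 4.79 and 5.03 in control cells. HEXIM1 exceeded HEXIM2 by 52.5-fold and 65.2-fold with JQ1 and by 3.499-fold and 3.52-fold with panobinostat.

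**Figure D4:**
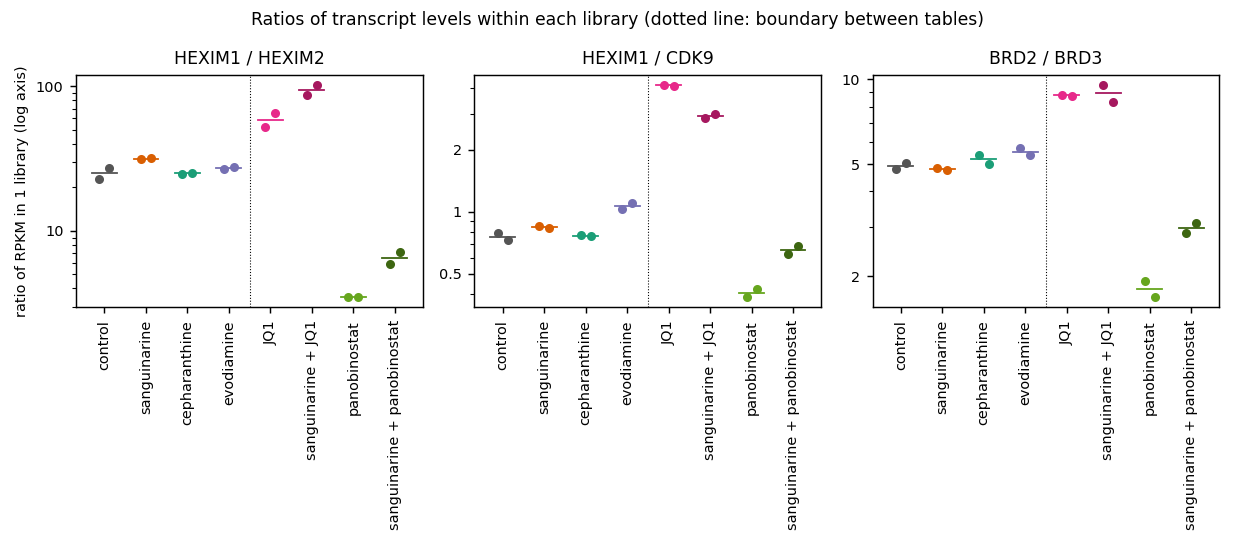
Ratio of RPKM between pairs of genes in each library (vertical log axis), with points for libraries and a line for the mean of each group. HEXIM1 to CDK9 is 4.12 and 4.10 with JQ1 and 0.387 and 0.424 with panobinostat, and the combinations lie between these.

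Among other genes of pause release, the 7SK capping enzyme MEPCE was far higher with JQ1 than with panobinostat. It stood at 42.9 and 40.9 RPKM with JQ1 and 5.78 and 5.11 RPKM with panobinostat, beside 34.0 and 32.8 RPKM in control cells, and its log2 difference was 3.11 (95% interval 2.87 to 3.36, edgeR adjusted p = 6.34e-14), beside 3.09 for BRD2. The counts in each list below stand beside 26.8% of all tested genes higher with JQ1 and 29.1% lower, 55.9% in all. In the list of P-TEFb and BET partners, 4 of 10 tested genes were higher with JQ1 and 4 lower, with a median of -0.06 beside -0.03 over all genes. TRIM28, a corepressor also reported in pause control, was among the higher ones (2.12). Of 11 genes of the super elongation complex, which carries active P-TEFb, 4 were higher and 1 lower (median 0.17), with the scaffold AFF4 at 1.23, the elongation factor ELL at 0.79 and the acetyl-lysine reader MLLT3 at -0.95.

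Of 14 genes of the pausing factors and the PAF1 complex, 6 were higher with JQ1 and 4 lower (median 0.06), beside 26.8% and 29.1% of all tested genes, with the elongation factors SUPT6H at 1.05 and SUPT5H at 0.92 and the NELF subunit NELFCD at -0.73. Of 11 genes of other transcription kinases and their partners, 5 were higher and 2 lower (median 0.27), led by CDK13 (1.47) and CDK12 (1.34), which phosphorylate the polymerase tail, and the Mediator kinase module gene MED13 (0.77). Of 32 tested genes with bromodomains outside the BET family, 21 were higher and 6 lower (median 0.74). BRD1 (2.50) and BRPF3 (2.46), scaffolds of histone acetyltransferase complexes, changed most among the higher ones, and SP140, an immune-cell reader with 7 to 48 reads in these libraries, stood at -2.26. Of 4 BET inhibitor markers, HEXIM1, SERPINI1 and ZCCHC24 were higher with JQ1, and ZMYND8 was lower, at 1.04 and 1.01 RPKM against 5.62 and 5.91 RPKM (log2 difference -2.33). With library totals as the scaling, the counts of higher and lower genes became 5 and 6 in the pausing list (median -0.11), 4 and 5 among the kinases, 4 and 6 among partners and 20 and 8 among the bromodomain genes, where the median of all genes was -0.19.

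**Figure D5:**
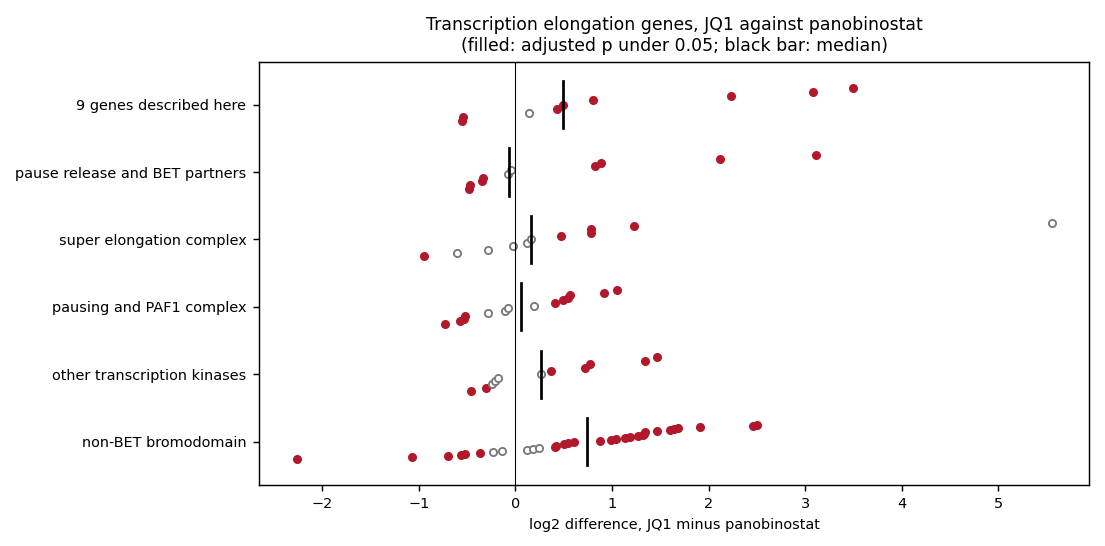
Log2 difference of JQ1 from panobinostat (horizontal axis) for the 9 genes and for 5 lists, of elongation genes and, in the last, of non-BET bromodomain genes. Filled points mark an adjusted p under 0.05 in edgeR and a black bar the median. Medians are 0.50 for the 9 genes and 0.74 for the non-BET bromodomain genes, and the unfilled point at 5.55 is AFF2, which did not pass (adjusted p = 0.0636).

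With sanguinarine alone, 11.7% of all tested genes were higher and 10.3% lower, 22% in all. Which of the higher and lower counts was larger in the bromodomain and kinase lists depended on the scaling. Of the pausing and PAF1 list, 6 of 14 were lower and 0 higher (median -0.23 beside 0.01 over all genes), with LEO1 at -0.58 and NELFCD at -0.49. Of the non-BET bromodomain list 8 of 32 were lower and 0 higher (median -0.12), with ATAD2 at -0.55, and of the other kinases 3 of 11 were lower and 0 higher, with CDK8 at -0.48. Among partners PPM1G, a phosphatase that releases P-TEFb from 7SK, was at -0.73 and the chaperone HSP90AB1 at -0.62, 2 of 10 lower and 0 higher. In the super elongation list 1 of 11, ELL at 0.37, was higher, and of the markers ZCCHC24 (0.71) and HEXIM1 were higher. With library totals as the scaling, which put the median of all genes at 0.15, the pausing list had 3 lower and 0 higher. The bromodomain list then had 1 lower and 3 higher, the kinases 1 lower and 2 higher, and the super elongation list 0 lower and 3 higher. Medians of the bromodomain and kinase lists were then 0.02 and 0.06, below that of all genes, as with TMM (-0.12 and -0.08).

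With sanguinarine on JQ1, 3 of 32 non-BET bromodomain genes were higher and 12 lower (4 and 11 with library totals), where 16.2% of all tested genes were higher and 13.8% lower, with BAZ1A at -0.94 and BRPF3 at 0.70. PAF1 rose (0.95) while RTF1 (-0.74) and CDC73 (-0.38) of the same complex fell, and in all 1 of 14 genes of that list was higher and 3 lower (1 and 1 with library totals). JMJD6, a BET partner, rose by 0.94, the phosphatase gene PPP3CA stood at -0.48, MLLT3 at -0.33, CDK12 at -0.33 and ZCCHC24 at 0.91. The partner list thus had 1 gene higher and 1 lower of 10. The super elongation and kinase lists each had 0 higher and 1 lower of 11. All of these counts lay below the 30% of all tested genes that passed. With library totals the partners had 2 higher and 1 lower, and the super elongation list 0 and 0. The kinases then had 1 higher and 0 lower.

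With sanguinarine on panobinostat, 7 of 32 non-BET bromodomain genes were higher and 6 lower (10 and 0 with library totals), where 11.5% of all tested genes were higher and 11.4% lower, led by BRD9 (0.88) and BRPF1 (0.77). MEPCE was higher by 0.50 and TRIM28 by 0.29, and PPP3CA stood at -0.44, which is 2 higher and 1 lower of 10. Of the pausing and PAF1 list 3 of 14 were higher (SUPT5H 0.68, SUPT6H 0.66 and PAF1 0.56) and 2 lower. Of the super elongation list 1 was higher (AFF4, 0.46) and 0 lower of 11, of the other kinases 1 was higher and 3 lower, with CCNC at -0.51 (2 and 0 with library totals), and ZCCHC24 stood at 0.73.

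With evodiamine 5.3% of all tested genes were higher and 6.13% lower. It gave 4 higher and 0 lower of 11 in the super elongation list, with EAF2 at 1.78 from 10 to 61 reads, MLLT3 at 0.46, and AFF3 at 4.69 from 0 to 25 reads, a fitted value that so few reads leave uncertain. Counts in the other lists were small, with 1 higher and 1 lower of 10 partner genes (JMJD6 0.39, PPM1G -0.33), 1 higher of 14 pausing genes (CTR9, 0.40), 1 higher of 11 kinases and partners (CCNK, 0.58), and 1 higher and 4 lower of 32 bromodomain genes, with PHIP at -0.56 and ATAD2 at -0.50 (2 higher and 1 lower with library totals). With cepharanthine 2.6% of all tested genes were higher and 0.961% lower, and it gave HSP90AB1 at -0.29, AFF1 at 0.72, SP140 at 1.46 and ZCCHC24 at 0.60, which is 1 gene in each of these lists, and 0 genes in the pausing and kinase lists, all by the edgeR test.

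Over the 16 libraries, with the mean of each table removed, HEXIM1 and BRD2 followed each other closely, with a Pearson r of 0.992 in log2 CPM. The genes most like HEXIM1 among 13296 were RETSAT (0.994), MCRIP1 (0.993), BRD2, ZC3H7B (0.991) and C12orf57 (0.990), and those most like BRD2 were ZC3H7B (0.996), MAST2 (0.995), SERINC5 (0.995), TRPC4AP (0.994) and FNBP1 (0.992). The closest to SERPINI1 reached lower values, ZNF654 (0.898), XG (0.888), POMZP3 (0.884), IMPA1 (0.884) and BRMS1L (0.883). The libraries share groups and the large JQ1 to panobinostat difference, so these values describe a shared pattern over the groups.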

How the data were processed

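RNA was purified on poly(A) and libraries were made with a NEBNext kit, per the labels' protocols. Alignment was to GRCh38 by STAR 2.5.1 with an annotation called GENCODE vM21, per the series' design text. What counted the reads is not stated in the labels or headers. Each deposited count is a whole number of reads for a gene in 1 library, per the file headers. The authors' RPKM values divide the counts by library total and gene-model length, per the file headers, and RPKM recomputed from the counts differed by at most a relative 5.14e-15. Gene positions in the tables do not match GRCh38, so none is printed. The tables differ in reads at overlapping genes.

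Counts of 16 libraries were fitted in edgeR 4.0.16 (R 4.3.3, limma 3.58.1) with a quasi-likelihood model, 1 term per group, TMM scaling and filterByExpr, which left 22263 genes including all 9 described. P values were adjusted by Benjamini-Hochberg within each of 10 comparisons and called at 0.05. The standard error is the log2 change over the square root of F. The duplicates are called biological in the labels, with no further detail, so p-values measure the spread between them, pooled over groups. The fit was tested on simulated data.

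Levels of 9 genes are described in every comparison. Of each list, at most 3 genes that passed, those with the largest changes, are named per comparison, plus the 5 genes most alike (at least 1 CPM in each table) and HMOX1; 1 gene that this rule named is not reported here, and not every named gene is printed. The genes and lists were chosen with earlier results of these data known, and AFF2 after its value was seen. Alternatives were median-ratio scaling, DESeq2 1.42.0, no filter, each table alone, the duplicate number as a block and each library left out. Library totals as the scaling, and leaving out both libraries of sanguinarine with panobinostat, were added after seeing the data, as were the list counts under other scalings.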

Additional observations from a re-analysis of the deposited data

Results flagged for a closer look

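The response to added sanguinarine differed between backgrounds for 3 genes, by a test of the difference itself in edgeR with Benjamini-Hochberg adjustment. In the comparisons below, in order, 2, 2 and 1 of the 9 genes passed, where 11.2%, 18.1% and 16.6% of all tested genes did. On JQ1 compared with panobinostat, HEXIM1 responded by -0.95 (adjusted p = 6.84e-05) and BRD2 by -0.87 (adjusted p = 0.000163) on the log2 scale, and both held without each library in turn, at -1.05 to -0.82 and -0.95 to -0.75. On JQ1 compared with sanguinarine alone, HEXIM1 responded by -0.57 (adjusted p = 0.00429) and HEXIM2 by -0.92 (adjusted p = 0.0395), the latter call being lost in 7 of 8 fits without 1 library. On panobinostat compared with sanguinarine alone, BRD2 responded by 0.62 more (adjusted p = 0.00269). The comparisons with sanguinarine alone run across the tables, so background drug and table cannot be told apart in them. HEXIM2 reads overlap genes on the opposite strand, and the part of this in its value was not tested.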

How the results depend on the processing

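Of 999 values of the 9 genes under alternatives, 920 kept their side of the threshold, of which 855 also kept their sign and 65, with no call in either setting, did not. Another 51 lost and 28 gained a call, and 0 with a call in either setting changed sign. Most of the 920 had no call in either setting, since few of the 9 genes passed in most comparisons. The 920 therefore says little of how firm the calls were. The number of the 9 genes called moved as follows. For sanguinarine against control it went from 1 to 0 with median-ratio scaling and with no filter. For cepharanthine against evodiamine it went from 1 to 4 with the first table alone and to 2 without both libraries of sanguinarine with panobinostat. For JQ1 against panobinostat it went from 8 to 7 with library totals, with the second table alone and with the replicate block. For sanguinarine on JQ1 it went from 5 to 2 with the second table alone, to 4 with no filter and to 6 without both libraries of sanguinarine with panobinostat. With the replicate block in that table it was also 2. The differences between duplicates correlated at r = -0.03 to 0.08 between groups of that table. Such values cannot decide whether the numbers pair the libraries. For sanguinarine on panobinostat it went from 3 to 2 with library totals and with the second table alone. For the response on JQ1 against that on panobinostat it went from 2 to 3 with median-ratio scaling, no filter, the second table alone and the block. For the response on JQ1 against sanguinarine alone it went from 2 to 4 without both libraries of sanguinarine with panobinostat, and for that on panobinostat from 1 to 2 with median-ratio scaling, library totals or DESeq2. The cause was not tested.

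With each library left out in turn, the number called ranged from 0 to 0 for sanguinarine, 0 to 1 for evodiamine and 0 to 1 for cepharanthine against evodiamine. It ranged from 6 to 7 for JQ1 against panobinostat, 2 to 5 for sanguinarine on JQ1 and 2 to 4 on panobinostat. For the differences between responses it ranged from 2 to 5 (JQ1 against panobinostat), 1 to 2 (JQ1 against alone) and 1 to 4 (panobinostat against alone). Leaving a group with 1 library assumes that it varies like the other groups.

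Counts over all genes moved by more than 1.5 times with a table fitted alone: 4895 to 7853 for sanguinarine, 793 to 3133 for cepharanthine, 2546 to 5575 for evodiamine, 3131 to 6268 for cepharanthine against evodiamine, 5107 to 3205 for sanguinarine on panobinostat, and 2497 to 1276 for the difference between responses on JQ1 and panobinostat, 1525 with the replicate block. Without both libraries of sanguinarine with panobinostat they were 2022, 4550 and 5181 for cepharanthine, evodiamine and their comparison, and 6205 against 4025 for the response on JQ1 against alone. DESeq2 called 1243 genes for cepharanthine. Without 1 library they also moved, in at least 1 fit of each by more than 1.5 times, to 2602 to 2744 for sanguinarine, 337 to 434 for cepharanthine, 1065 to 1250 for evodiamine, 1460 to 1685 for cepharanthine against evodiamine and 2088 to 7739 for sanguinarine on panobinostat. For the differences between responses they were 1463 to 4984, 2618 to 3443 and, on panobinostat against alone, 2084 to 6263 in place of 3686. Library totals in place of TMM moved the median of all genes from 0.01 to 0.15 for sanguinarine, from -0.03 to -0.19 for JQ1 against panobinostat and from 0.06 to 0.17 for sanguinarine on panobinostat. The share of calls that were higher went from 53.2% to 75.7% for sanguinarine, 46.4% to 57.6% for evodiamine, 54% to 66.3% for sanguinarine on JQ1 and 50.2% to 72.2% on panobinostat. Depth limits SERPINI1 in the first table, at 11 to 54 reads.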

Other observations

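The 7SK RNA itself (RN7SK), chosen after its values were seen, is not polyadenylated, and these are poly(A) libraries. It stood at 234 and 94.5 RPKM in control cells, 23.7 and 65.8 RPKM with sanguinarine, 17.1 and 21.3 RPKM with cepharanthine and 4.11 and 17.2 RPKM with evodiamine. In the second table it stood at 57.1 and 53.4 RPKM with JQ1, 0.979 and 27.4 RPKM with panobinostat, 19.3 and 10.06 RPKM with sanguinarine and JQ1, and 4.66 and 16.96 RPKM with sanguinarine and panobinostat. Both control libraries lay above every other library. Duplicates were close with JQ1 and with cepharanthine and furthest apart in proportion with panobinostat.

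LINC00094, opposite BRD3, held 36.2% to 36.9% of the BRD3 count in control cells, 48.2% in both sanguinarine libraries, and 74.3% to 83.8% with sanguinarine and panobinostat.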
